A study of Mus musculus with 18 samples.

Results

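The ERVL-MaLR loci of the mouse genome were examined in rRNA-depleted RNA of C3H/10T1/2 cells, a line of mouse mesenchymal progenitor cells (MPCs), with and without knockout (KO) of *Atrx*. Members were taken by name: every row of the deposited count table whose locus name ends in the family ERVL-MaLR and its repeat class was kept. This gave 454918 loci of 3725827 repeat loci, or 12.2%, under 108 subfamily names, of which 56 are internal sequences (names ending in -int). There were 9 libraries in 3 groups of 3, all from the same parental line grown without a further treatment named in the labels. WT was a line that carried the empty Cas9 vector, sg5 was the KO clone G7 made with one *Atrx* guide, and sg6 was the KO clone B10 made with another. Since each group is 1 line or clone, *Atrx* loss cannot be told apart from other differences between the lines. Both clones were compared with the same WT libraries. The labels do not say whether the libraries of a group came from separate cultures, and the p-values then measure only the spread between libraries, which may be technical.

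ERVL-MaLR elements are LTR retrotransposons of the mammalian apparent LTR retrotransposon group. They lack the genes for their own mobility and are thought to have relied on proteins of ERVL elements. A full copy holds an internal sequence between a pair of long terminal repeats (LTRs), but most copies in the genome are solitary LTRs. The MT and ORR1 subfamilies are found in rodents, whereas MLT1 copies are older and are shared by many mammals. In mouse, MT and ORR1 LTRs are known to serve as promoters in oocytes and early embryos. ATRX is a chromatin remodeller that works with the histone chaperone DAXX in heterochromatin and at repeats, and LTR elements are commonly silenced by TRIM28 and the H3K9 methyltransferase SETDB1.

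The libraries held 20135336 to 33187136 counts on genes and repeats. *Atrx* RNA, in CPM (each count over its library total, on a scale of 1e+06 counts, corrected by TMM factors), was 213, 185 and 222 in WT, 107, 58.4 and 71.0 in sg5, and 96.6, 72.7 and 80.3 in sg6. All KO libraries were below all WT libraries, with log2 fold changes of -1.39 ± 0.20 (SE; adjusted p = 0.00074) and -1.31 ± 0.20 (adjusted p = 0.0013) by edgeR's quasi-likelihood test with Benjamini-Hochberg adjustment, the test behind every adjusted p given here. WT replicate 3 stood apart: repeats took 15.5% of its counts against 10.4% to 12.3% in the other libraries, and it had the highest share in 18 of the 19 repeat families with at least 1000 loci. The share of counts, the numbers of called loci and the median changes are therefore also given without it. The comparison of repeat families, the groups by name and the shares without overlap are given from all libraries only. Of 12 markers of mesenchymal cells, 11 were tested, with summed levels of 7631 to 13673 CPM, 2 higher in sg5 (6.43% of all genes tested) and 4 higher and 1 lower in sg6 (4.03% and 4.77%). The mean CPM of *Thy1* was 0.298 for WT, 0.0960 for sg5 and 27.0 for sg6, so this defining marker was close to 0 in WT and sg5. Of 13 markers of blood, endothelial, epithelial, pluripotent and germ cells, 3 were tested and their summed level was 1.28 to 4.92 CPM; *Cdh1* was lower in both clones.

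Most ERVL-MaLR loci gave no reads. A count was present in any library for 88623 loci, 366295 were at 0 in all 9, 56027 had 1 to 9 counts in total, and 859 had at least 10 counts in every library. After the filter on low counts, 4616 loci (1.01% of those listed) entered the test, among 42783 repeat loci and 13303 genes. The tested loci had a median mean level of 0.442 CPM, 557 reached 1 CPM, and the highest averaged 15 CPM. The signal was spread thinly. With loci ranked once by their mean level over all libraries, the top locus held 0.146% to 0.324% of the ERVL-MaLR counts of a library. The top 10 of that ranking held 1.17% to 1.83%, and the top 1000 held 19.7% to 25.0%. TElocal shares out reads that align to several copies, and reads of copies with almost the same sequence may therefore stand in the count of a single locus. The strand setting of the counting was not given in the sources used here, and reads of a gene that overlaps a locus cannot be told from transcripts of the locus itself.

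The 5 most abundant loci did not pass the test in either clone. The copy ORR1A4-int_dup793 had 287, 292 and 574 counts in WT, 359, 355 and 589 in sg5, and 345, 346 and 392 in sg6 (adjusted p = 0.22 and 0.78). The counts of ORR1A0-int_dup64 were 342, 348 and 552 in WT, 574, 312 and 401 in sg5, and 424, 289 and 296 in sg6. For MTA_Mm-int_dup543, WT had 238, 220 and 355 counts, sg5 521, 233 and 269, and sg6 353, 232 and 224. Scaled to CPM, sg6 overlapped WT in all 5 loci, while sg5 was above WT in all its libraries for ORR1A0-int_dup64 (adjusted p = 0.416) and below WT in all of them for ORR1A3_dup3284 and MTEa-int_dup826 (adjusted p = 0.445 and 0.438). Of the 5, 4 are internal sequences.

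The first question was whether loss of *Atrx* changed the part of the transcriptome that comes from ERVL-MaLR loci as a whole. Their share of all counts was 0.612%, 0.743% and 0.939% in WT (mean 0.765 ± 0.164, SD, n = 3), 0.634%, 0.578% and 0.667% in sg5 (0.626 ± 0.0449) and 0.635%, 0.616% and 0.655% in sg6 (0.635 ± 0.0192). The KO libraries lay between the lowest and the middle WT library, apart from sg5 replicate 2, which was below all of WT. The differences of -0.138 percentage points for sg5 (exact permutation test, two-sided, p = 0.3) and -0.129 for sg6 (exact permutation test, p = 0.4) did not pass, and 3 libraries against 3 cannot give a p below 0.1. Without WT replicate 3 they shrank to -0.0514 and -0.0423 percentage points, and without WT replicate 1 they were -0.215 and -0.206. Within the counts on LINE, SINE, LTR and DNA repeats, the share was nearly the same everywhere: 9.71%, 9.79% and 10.1% in WT, 9.85%, 9.84% and 9.91% in sg5, and 10.1%, 9.64% and 9.83% in sg6. The differences on that scale were -0.0156 percentage points in sg5 (exact permutation test, p = 1.0) and -0.0413 in sg6 (exact permutation test, p = 0.8).

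**Figure D1:**
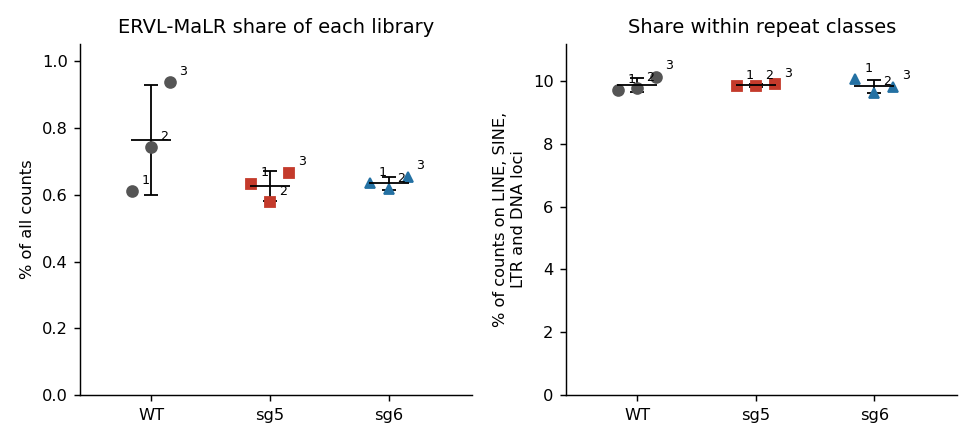
The percent of all counts (left) and of the counts on LINE, SINE, LTR and DNA loci (right) that fall on ERVL-MaLR loci, with 1 numbered point per library, the mean as a line and the SD as a bar (n = 3). On the left WT replicate 3 is highest at 0.939%, and on the right all libraries lie between 9.64% and 10.1%.

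The next question was which single loci changed in each clone. In sg5, 46 ERVL-MaLR loci were higher than in WT and 82 were lower at an adjusted p below 0.05, which is 0.997% and 1.78% of those tested, where 2.23% and 2.65% of all features and 0.916% and 1.66% of repeat loci passed. In sg6, 28 were higher and 63 lower, or 0.607% and 1.36%, beside 1.39% and 2.23% of all features and 0.563% and 1.44% of repeat loci. In total 162 loci passed in at least 1 clone and 0 passed in opposite directions. Passing in both clones were 13 higher loci (0.282%; 0.806% of all features, 0.262% of repeat loci) and 44 lower loci (0.953%; 1.54% of all features, 0.921% of repeat loci). With TMM factors from repeats alone, sg5 had 65 higher and 70 lower loci (1.41% and 1.52%, beside 2.55% and 2.2% of all features). With DESeq2, 20 loci were higher and 34 lower in both clones (0.433% and 0.737%, beside 1.07% and 1.34% of all features). Among the 859 loci with at least 10 counts in every library, a filter that a locus near 0 in any group cannot pass, the balance turned to 5 higher and 2 lower in both clones, beside 1.88% and 1.31% of all features. The shares of ERVL-MaLR loci were close to those of repeat loci in general and below those of all features. The median log2 fold change of the tested loci was -0.13 in sg5 and -0.08 in sg6, against -0.07 and -0.05 over all features. It did not move when loci at 0 in a group were set to their bound. That touched only 8 loci for sg5 and 12 for sg6, so the median could hardly move. The sign of this median is not stable: without WT replicate 3 it was 0.02 in sg5 and 0.05 in sg6 (all features 0.01 and 0.01). With TMM factors from genes alone it was -0.20 and -0.13 (all features -0.13 and -0.10). With TMM factors from repeats alone it was -0.0040 and 0.02 (all features 0.05 and 0.04). Those last factors set repeats near 0 by construction, so they cannot decide the sign.

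These counts, and those of all features, depended on WT replicate 3. Without it, 19 loci were higher and 32 lower in sg5 (0.373% and 0.628%, beside 0.785% and 1.46% of all features). In sg6 these were 11 and 28 (0.216% and 0.549%, beside 0.547% and 1.18%), and in both clones 7 and 19 (0.137% and 0.373%, beside 0.272% and 0.841%). WT replicate 3 was the highest of the WT libraries in 26 of the 44 lower loci and 5 of the 13 higher ones, compared with 47.9% of all tested loci. Its part in the calls was not tested further. Of the other libraries, leaving out WT replicate 2 gave 27 higher loci in sg5 (0.495%, beside 0.942% of all features). Leaving out sg5 replicate 2 gave 50 lower loci in sg5 (0.816%, beside 1.44%), and leaving out sg5 replicate 1 gave 46 higher loci in sg6 (0.819%, beside 1.74%). Lower loci in sg6 were 39 without sg6 replicate 2 (0.686%, beside 1.35%) and 38 without sg6 replicate 3 (0.636%, beside 1.14%).

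Among repeat families, ERVL-MaLR was close to all repeat loci (0.921% lower and 0.262% higher in both clones) and below all features (1.54% and 0.806%). Lower in both were 3.01% of tested ERVK loci, 2.22% of ERV1, 1.97% of L1, 0.953% of ERVL-MaLR, 0.587% of ERVL, 0.394% of MIR, 0.305% of B2, 0.176% of B4 and 0.119% of Alu (B1) loci. Higher in both were 0.502% of ERVK, 0.512% of ERV1, 0.367% of L1, 0.282% of ERVL-MaLR, 0.587% of ERVL, 0.329% of MIR, 0.153% of B2, 0.215% of B4 and 0.0716% of Alu loci. ERVL, whose proteins MaLR copies are thought to have used, thus had 6 loci in each direction among 1022 tested. These are shares of loci that passed the filter and were not compared by a test. They come from the fit of all libraries and are not given by family without WT replicate 3.

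The 13 loci higher in both clones belonged to 12 subfamilies, and in each of them the KO and WT libraries did not overlap, as in 2.38% of all tested ERVL-MaLR loci and 4.48% of all features in this direction. Together they rose from 126, 150 and 187 counts in WT to 988, 645 and 968 in sg5 and 883, 1118 and 673 in sg6, which took their part of the ERVL-MaLR counts from 0.0600% to 0.0859% in WT to 0.426% to 0.623% in the clones. The loci were called in these same libraries, so the rise of their sum follows from the choice. All 13 were LTRs, as were 3930 of the 4616 loci tested. Of the 13, 6 were of the old MLT1 group, which is 0.932% of its 644 tested loci, beside 0.806% of all features.

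Several of the higher loci were close to silent in WT, and passed the filter on low counts through the clones. The LTR MTD_dup46849 had 0, 1 and 0 counts in WT, 15, 11 and 4 in sg5, and 21, 6 and 12 in sg6. With 1 count in WT, the ratio to WT was 36.9 in sg5 (95% exact counting interval 6.13 to 1506) and 46.0 in sg6 (7.78 to 1861). For MLT1B_dup7137 the counts were 0, 1 and 0 in WT, 29, 10 and 8 in sg5, and 15, 5 and 10 in sg6, ratios of 57.8 (9.88 to 2332) and 35.4 (5.88 to 1442). These intervals cover counting error only. MLT1A0_dup1550 went from 0, 1 and 2 counts in WT to 37, 20 and 29 in sg5 and 29, 12 and 29 in sg6, with ratios of 35.3 (11.7 to 174) and 27.5 (9.03 to 137). The ORR1E_dup14953 copy had 0, 1 and 1 counts in WT, 12, 3 and 22 in sg5, and 17, 7 and 11 in sg6, ratios of 22.8 (5.87 to 195) and 20.6 (5.30 to 177). Of these 4, MLT1A0_dup1550 (adjusted p = 0.00014 and 0.00048) kept its call in both clones when any single library was left out. The calls of the other three did not all survive. MTD_dup46849 (0.039 and 0.023) rose to an adjusted p of 0.0695 to 0.153 in sg5 without any one WT library or sg5 replicate 1 or 2, and to 0.0510 to 0.128 in sg6 without WT replicate 1 or 3 or sg6 replicate 1 or 3. MLT1B_dup7137 (0.0095 and 0.049) reached 0.0601 in sg5 without WT replicate 3, and 0.0531 to 0.209 in sg6 without any one WT library, sg5 replicate 2, or sg6 replicate 1 or 3. ORR1E_dup14953 (0.011 and 0.017) reached 0.0867 to 0.0918 in sg5 without WT replicate 3 or sg5 replicate 3, and 0.0514 to 0.138 in sg6 without any one WT library or sg6 replicate 1.

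A few higher loci had reads in every WT library. The LTR ORR1A1_dup4269 was the most abundant of them, with 13, 24 and 35 counts in WT, 57, 152 and 283 in sg5, and 201, 686 and 225 in sg6. It rose by a log2 fold change of 3.10 in sg5 (adjusted p = 0.0074) and of 4.14 in sg6 (adjusted p = 0.00059), and its KO libraries varied widely. For ORR1A3_dup651, counts of 1, 6 and 14 in WT compared with 105, 21 and 56 in sg5 and 96, 68 and 57 in sg6, a log2 rise of 3.37 (adjusted p = 0.0022) and 3.63 (adjusted p = 0.001). MLT1A1_dup1365 had 4, 6 and 9 counts in WT, 80, 31 and 43 in sg5, and 70, 28 and 39 in sg6, which is a log2 rise of 3.28 (adjusted p = 0.0014) and 3.08 (adjusted p = 0.003). These 3 kept their calls when any single library was left out. MLT1H1_dup641 was close to silent in WT, with 0, 0 and 4 counts, 11, 7 and 11 in sg5, and 11, 15 and 15 in sg6, with a log2 rise of 3.03 (adjusted p = 0.046) and 3.47 (adjusted p = 0.015). Its call was lost in sg5 in 7 of the 9 fits that left out a library (adjusted p = 0.0514 to 0.140) and in sg6 without WT replicate 2 or sg6 replicate 3 (0.0570 to 0.0578).

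The 44 loci lower in both clones came from 25 subfamilies. In all 44 the KO libraries were without overlap below WT, as in 4.48% of tested ERVL-MaLR loci and 5.56% of all features. They held 1578, 1684 and 3202 counts in WT, 365, 143 and 232 in sg5, and 259, 208 and 187 in sg6, or 0.845% to 1.08% of the ERVL-MaLR counts in WT and 0.116% to 0.212% in the clones. The fall of this sum likewise follows from the choice of the loci in these same libraries. In 5 loci all KO libraries were at 0, and in 12 loci all libraries of at least 1 clone were at 0, so that these loci passed the filter through the other groups. Folds against a group at 0 are lower bounds, computed against 3 counts per library.

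The internal sequence MTB-int_dup402 had 36, 46 and 51 counts in WT and 0 in all 6 KO libraries, at least 11.8-fold lower in sg5 and 12.6-fold lower in sg6 (adjusted p = 0.00031 and 0.00029). The LTR ORR1A2_dup1858, with 9, 17 and 43 counts in WT and 0 in the clones, was at least 5.57-fold and 5.96-fold lower (adjusted p = 0.013 in each). MTA_Mm_dup2373 had 16, 16 and 33 counts in WT and 0 in the clones, at least 5.54-fold and 5.93-fold lower (adjusted p = 0.0057 and 0.0058). MTB-int_dup402 and MTA_Mm_dup2373 had at least 16 counts in every WT library, but ORR1A2_dup1858 had only 9 in WT replicate 1. The remaining 2 of the 5 had fewer WT reads in total: ORR1F_dup22769 with 11, 14 and 19 counts in WT (at least 3.83-fold and 4.10-fold lower, adjusted p = 0.019 in each) and ORR1A4-int_dup47 with 9, 11 and 15 (at least 3.05-fold and 3.27-fold lower, adjusted p = 0.038 and 0.043). MTB-int_dup402 kept both calls in all 9 fits that left out a library. ORR1A2_dup1858 kept both in the 7 of these that tested it, and in the others its counts did not pass the filter. MTA_Mm_dup2373 was lost without WT replicate 3 (adjusted p = 0.103 and 0.125). ORR1F_dup22769 was lost in 6 such fits in each clone (0.0582 to 0.188 and 0.0571 to 0.244), and ORR1A4-int_dup47 in all 7 that tested it (0.0530 to 0.154 and 0.0631 to 0.201).

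A few more were nearly silent in the clones. MTA_Mm-int_dup1999 had 21, 22 and 58 counts in WT, 0, 0 and 1 in sg5, and 0, 1 and 0 in sg6, a WT to clone ratio of 82.1 (95% exact counting interval 14.4 to 3275) and 85.7 (15 to 3419). ORR1A4-int_dup1029 had 20, 12 and 54 counts in WT, 1, 0 and 0 in sg5 (ratio 69.9, 12.2 to 2793; adjusted p = 0.0064), and 0 in sg6 (at least 7.58-fold lower, adjusted p = 0.0045). Without WT replicate 3 its adjusted p was 0.0893 and 0.0767. A set of LTRs with more reads, chosen after their values were seen, shared a profile over the libraries: WT replicate 3 was highest, and replicate 1 was highest within each clone. MTE2b_dup4956 had 99, 89 and 349 counts in WT, 75, 11 and 23 in sg5, and 37, 15 and 15 in sg6. For ORR1C1_dup2519 they were 75, 81 and 257 in WT, 46, 15 and 14 in sg5, and 33, 11 and 15 in sg6. MLT1B_dup3162 and MLT1E3_dup347 had 99, 57 and 219 and 73, 61 and 165 counts in WT. Of these 4 loci, all lost the call in sg5 without WT replicate 3 or sg5 replicate 3, and all but ORR1C1_dup2519 lost it without WT replicate 1 or sg5 replicate 2 (adjusted p = 0.0551 to 0.217). In sg6, all but MLT1E3_dup347 lost it without WT replicate 3 (0.0548 to 0.0832), and MTE2b_dup4956 also without sg6 replicate 3 (0.0524).

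**Figure D2:**
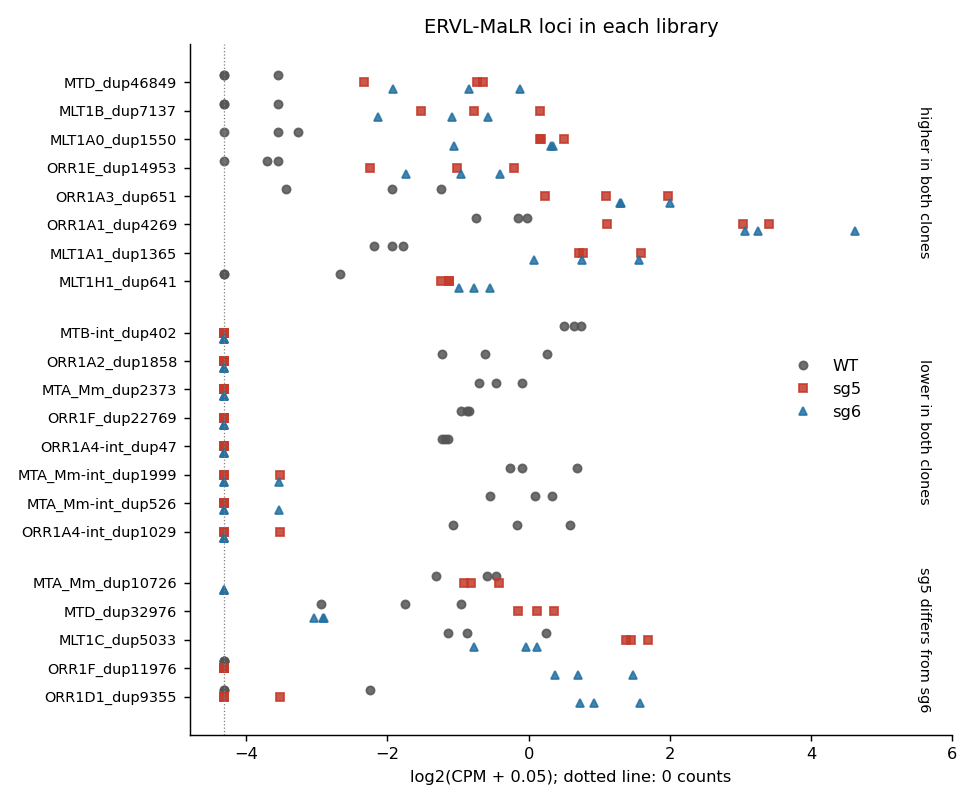
Each row is a locus and each point a library, placed at log2 of CPM plus 0.05, with WT, sg5 and sg6 by colour and marker and a dotted line at 0 counts. The upper 8 loci are higher in both clones, the middle 8 lower in both, with 5 of them on the dotted line in all 6 KO libraries, and the lower 5 differ between sg5 and sg6.

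By structure, the lower loci fell on both internal sequences and LTRs. Of 686 internal sequences tested, 0 were higher and 16 lower in both clones (2.33%, beside 1.54% lower and 0.806% higher of all features), with 6 higher and 26 lower in sg5 (2.23% and 2.65% of all features) and 1 and 24 in sg6 (1.39% and 2.23%). Of 3930 LTRs, 13 were higher (0.331%) and 28 lower (0.712%) in both. Without WT replicate 3, 11 of 727 internal sequences and 8 of 4370 LTRs were lower in both clones, beside 0.841% of all features. LTRs lower in both were 17 without sg5 replicate 2 or sg6 replicate 2 (0.322% and 0.349%, beside 0.982% and 1.07% of all features). Without sg5 replicate 3 they were 18 (0.377%, beside 1.03%). With at least 10 counts in every library, 1 of 200 internal sequences (0.5%) and 1 of 659 LTRs (0.152%) were lower in both, beside 1.31% of all features, so the counts above rest on loci with few or no reads in some libraries. By name, the MTA group had 15 lower and 0 higher of 384 tested (3.91% lower), ORR1A 5 lower and 2 higher of 505, ORR1D 3 and 2 of 411, MTE 3 and 0 of 538, MTD 2 and 1 of 637, and MTC 1 and 0 of 359. MLT1, the old group, had 6 in each direction of 644. No MST or THE1 name was in the table. The counts by name come from the fit of all libraries. The split between LTRs and internal sequences was not tested.

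**Figure D3:**
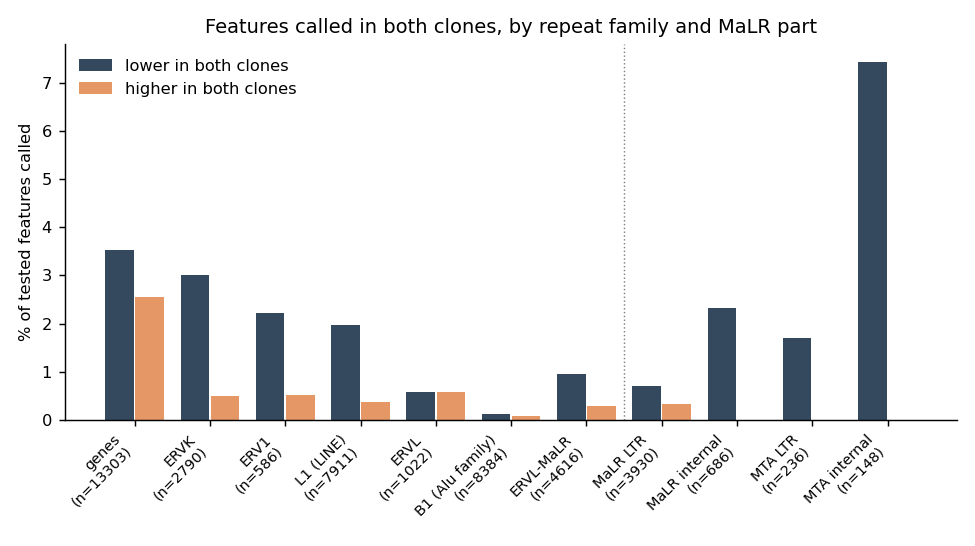
Bars give the percent of tested features that were lower (dark) or higher (light) than WT in both clones at an adjusted p below 0.05, for genes, 6 repeat families and, right of the dotted line, LTRs and internal sequences of ERVL-MaLR and of its MTA group. ERVL-MaLR stands at 0.953% lower and 0.282% higher, and MTA internal sequences at 7.43% lower and 0 higher. All bars are from the fit of all libraries.

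The internal sequence of MTA, MTA_Mm-int, gave 11 of the 16 lower internal loci, out of 148 tested (7.43%, beside 1.54% of all features). Without WT replicate 3 it had 9 lower of 159 (5.66%, beside 0.841%). With at least 10 counts in every library it had 1 lower of 56 (1.79%, beside 1.31%), since loci at or close to 0 in the clones pass only the main filter, through WT. The 11 loci summed to 19.0, 19.5 and 22.6 CPM of the whole library in WT (20.4 ± 1.93, SD, n = 3), 2.36, 2.14 and 2.60 in sg5 (2.37 ± 0.233) and 2.00, 2.68 and 1.49 in sg6 (2.06 ± 0.595). WT replicate 3 was not far from the other WT libraries on this sum. As the loci were called in these same libraries, the gap between WT and the clones follows from the choice. They were 8.0% of the MTA_Mm-int signal in WT. The whole subfamily, 1012 loci with counts, summed to 254 ± 28.5 in WT, 221 ± 17.3 in sg5 and 199 ± 12.9 in sg6, and the other 1001 loci to 234 ± 26.5, 219 ± 17.2 and 197 ± 13.1.

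Of these 11 loci, 7 carry copy numbers between 511 and 527, a run of 17 numbers of which 15 had counts and 10 were tested. The run was noticed, and its copies are named, after their values were seen. MTA_Mm-int_dup518 had 116, 108 and 131 counts in WT, 0, 0 and 4 in sg5, and 2, 4 and 1 in sg6, which gave log2 changes of -6.08 (adjusted p = 1.24e-06) and -5.38 (adjusted p = 1.26e-06). MTA_Mm-int_dup519 had 75, 63 and 80 counts in WT, 0, 0 and 4 in sg5, and 0, 0 and 1 in sg6. MTA_Mm-int_dup527 had 35, 26 and 75 in WT, 0 in sg5, and 0, 2 and 1 in sg6. In these copies the KO libraries were at or close to 0. MTA_Mm-int_dup526, with 15, 34 and 38 counts in WT, was at 0 in sg5 (at least 7.45-fold lower, adjusted p = 0.0012) and had 0, 1 and 0 counts in sg6 (ratio 73.8, 12.9 to 2949; adjusted p = 0.0017). MTA_Mm-int_dup511 and MTA_Mm-int_dup512 were lower too, from 21 to 64 counts in WT to 0 to 6 in the clones. MTA_Mm-int_dup520 moved less, from 73, 117 and 127 counts in WT to 46, 30 and 48 in sg5 and 34, 54 and 24 in sg6 (log2 fold changes -1.06, adjusted p = 0.031, and -1.27, adjusted p = 0.0125). Of the 7, the other six kept both calls when any single library was left out, while MTA_Mm-int_dup520 lost that in sg5 in 7 of 9 such fits (0.0503 to 0.155) and that in sg6 without WT replicate 2 or sg6 replicate 1 or 3 (0.0627 to 0.126). All 10 tested copies of the run had a fold change below 0 in both clones, but MTA_Mm-int_dup515, the most abundant, did not pass (-0.20, adjusted p = 0.684, and -0.41, adjusted p = 0.461). The table gives no positions, and whether copies with neighbouring numbers are neighbours in the genome was not determined.

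**Figure D4:**
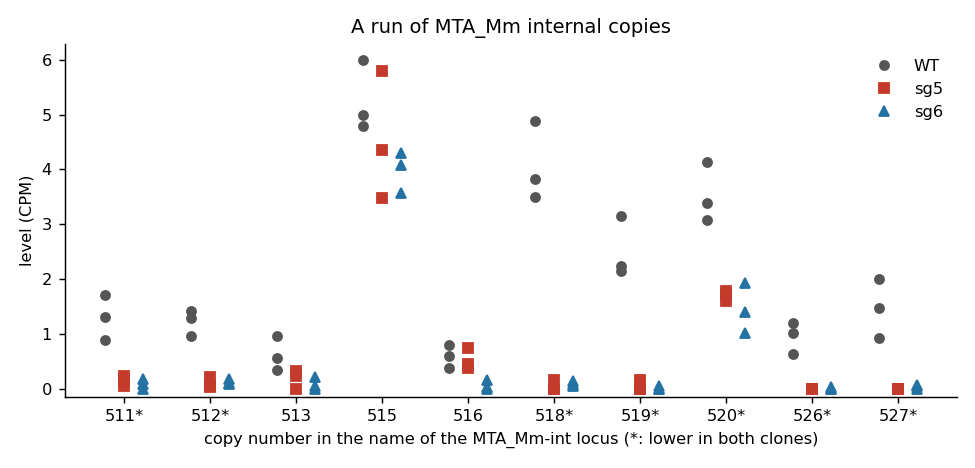
The level in CPM of the 10 tested MTA_Mm-int copies numbered 511 to 527 is plotted with 1 point per library, in WT, sg5 and sg6, and an asterisk marks the 7 copies lower in both clones. At these 7 every KO point lies below every WT point, and at copy 515 sg5 overlaps WT while sg6 lies below it.

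Direct comparison of the clones gave few differences. Higher in sg5 than in sg6 were 4 loci (0.0867%; 0.242% of all features, 0.112% of repeat loci) and lower were 2 (0.0433%; 0.307% of all features, 0.0701% of repeat loci), and none of the 57 loci called in both clones was among them. MTD_dup32976 had 11, 7 and 3 counts in WT, 23, 23 and 28 in sg5, and 2, 2 and 2 in sg6, a difference of 3.62 ± 0.56 (SE, log2, adjusted p = 0.0042). MTA_Mm_dup10726 had 16, 10 and 23 counts in WT and 14, 13 and 13 in sg5 but 0 in sg6, which was at least 4.59-fold below WT (adjusted p = 0.0042; sg5 versus sg6, adjusted p = 0.019). MLT1C_dup5033 was raised in sg5, with 27, 14 and 15 counts in WT, 69, 50 and 86 in sg5, and 25, 15 and 22 in sg6 (difference 1.77 ± 0.35, adjusted p = 0.033). The remaining one, MTA_Mm-int_dup469, is outside the naming rule and was chosen after its values were seen. It had 41, 38 and 56 counts in WT, 138, 54 and 84 in sg5, and 36, 39 and 28 in sg6 (difference 1.46 ± 0.28, adjusted p = 0.030), and the difference was lost in 7 of the 9 fits that left out a library (adjusted p = 0.0514 to 0.226).

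The 2 loci higher in sg6 were absent or rare elsewhere. ORR1F_dup11976 had 0 counts in all WT and sg5 libraries and 30, 44 and 65 in sg6, at least 17.8-fold above WT (adjusted p = 0.00056; sg5 versus sg6, adjusted p = 0.0045). ORR1D1_dup9355 had 0, 0 and 6 counts in WT, 0, 0 and 1 in sg5, and 71, 45 and 44 in sg6, a log2 fold change of 4.90 against WT (adjusted p = 0.00014) and an sg6 to sg5 ratio of 153 (95% exact counting interval 27.1 to 6091). These 2 and MTD_dup32976 kept the difference between clones without any single library. MTA_Mm_dup10726 lost it without sg5 replicate 2 or sg6 replicate 2 or 3 (0.0509 to 0.0591), MLT1C_dup5033 without sg5 replicate 2 or 3 or sg6 replicate 2 or 3 (0.0673 to 0.204), and the rise of MTD_dup32976 in sg5 against WT was lost without WT replicate 3 (0.0586). The count of loci higher in sg5 was 2 without sg5 replicate 2, 7 without sg6 replicate 1 and 1 without sg6 replicate 2 or 3, and that of lower loci was 5 without sg6 replicate 1. These fits tested different numbers of features, and their shares over all features are not given, so the counts are not read as a result.

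Summed over all their loci, the subfamilies showed little. Of 108, 94 were tested, and 1 was lower in sg5 (1.06%; 8.57% of all features and 2.78% of repeat subfamilies), with 0 higher where 8.74% of all features and 0.497% of repeat subfamilies were. In sg6, 0 were higher and 0 lower, where 5.81% and 6.17% of all features and 0.199% and 2.28% of repeat subfamilies passed. In both clones there were 0 in either direction, beside 3.88% higher and 4.51% lower of all features and 1.29% lower of repeat subfamilies. Between the clones there were 0 as well, beside 0.692% higher and 1.32% lower in sg5 of all features and 0.397% lower of repeat subfamilies. At an unadjusted p below 0.05 in the same test there were 14 of the 94 in sg5, 6 in sg6 and 0 between the clones. The same counts over all features are not given here, so these are not read as a result. DESeq2 called 3 lower in sg5 and 1 in sg6 (3.19% and 1.06%, beside 11.4% and 8.11% of all features). The 1 called was MLT1E3, an old subfamily, at 16.7, 18.7 and 28.3 CPM in WT, 14.2, 9.76 and 12.8 in sg5, and 14.1, 11 and 14 in sg6. Its log2 fold change was -0.79 ± 0.22 in sg5 (SE; adjusted p = 0.039) and -0.71 ± 0.22 in sg6 (adjusted p = 0.0709). The call in sg5 was lost without WT replicate 2 or 3, sg5 replicate 2 or 3, or sg6 replicate 3 (adjusted p = 0.0616 to 0.127). Without WT replicate 1 there were 4 lower subfamilies in sg5 (4.21%, beside 6.66% of all features). Without MLT1E3_dup347, the 1 locus of it lower in both clones, the sum averaged 18.6, 11.3 and 12.4 CPM of the whole library in WT, sg5 and sg6, beside 22.1, 12.1 and 12.7 with it. The KO libraries lay below WT without overlap for MLT1E3 and MLT1E, 2.13% of the 94, where 9.88% of all features did so, and above WT for 0, where 10.8% did.

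The 8 most abundant subfamilies were not called in either clone. MTD, the first of them, had mean CPM of 879 ± 165 for WT (SD over 3 libraries), 772 ± 57.7 for sg5 and 790 ± 36.1 for sg6, with fitted log2 changes of -0.19 and -0.15. MTA_Mm-int, the subfamily with the most lower loci, averaged 245 ± 24.5, 224 ± 14.2 and 204 ± 8.86 CPM, fitted log2 changes of -0.13 (adjusted p = 0.411) and -0.27 (adjusted p = 0.142). Most point estimates lay below 0, for 87 of the 94 in each clone, with a median of -0.23 in sg5 and -0.20 in sg6, beside -0.24 and -0.20 over all 1007 repeat subfamilies and 0.00 and -0.01 over all features. This shift moved with WT replicate 3 and with the scaling. WT replicate 3 was the highest of the 9 libraries in 80 of the 94 subfamilies, and without it the medians were -0.06 and -0.02. With TMM factors from genes alone the medians were -0.25 and -0.21 (all features -0.02 and -0.02). With TMM factors from repeats alone they were 0.00 and 0.00, while that of all features moved to 0.21 and 0.16. Factors from repeats alone set repeats near 0 by construction, so they cannot decide whether there is a shift.

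**Figure D5:**
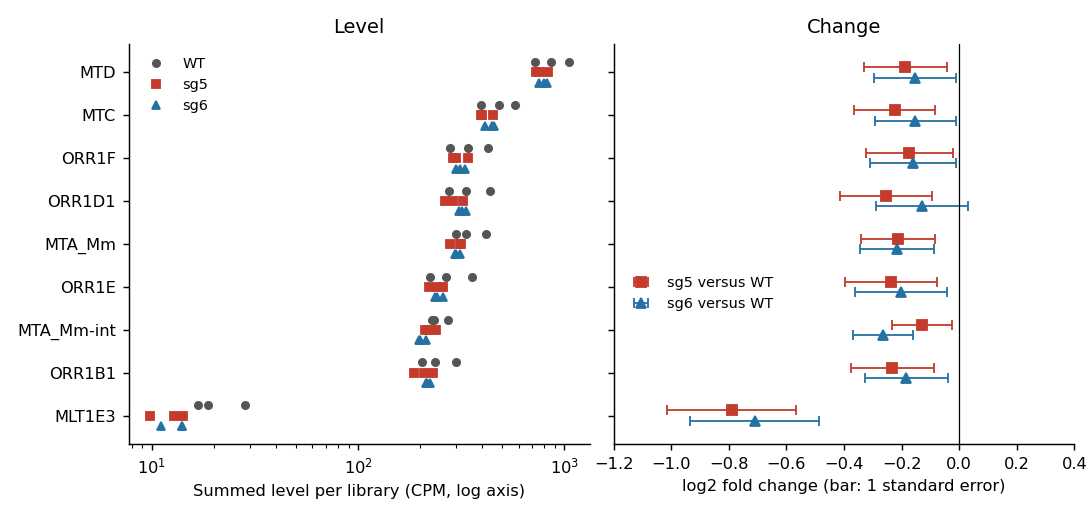
The left panel plots the summed level of the 8 most abundant subfamilies and MLT1E3 in each library (CPM, log axis), and the right panel their log2 fold change against WT with 1 SE. For each of the 8 the highest WT point is above all KO points and the lowest is not, while MLT1E3 has its 3 WT points all above the KO points.

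Among 41 genes known to silence LTR elements or to switch on ERVL elements, 35 were tested. In sg5, 2 were higher and 3 lower (6.43% and 5.84% of all genes tested), and in sg6, 1 was higher and 2 lower (4.03% and 4.77%), with median log2 fold changes of -0.15 and -0.10. The lower genes include *Atrx*, the target of the KO. Passing in both clones were 1 higher gene, *Tasor*, and 2 lower, *Atrx* and *Dppa2*, where 2.56% of all genes tested were higher and 3.53% lower. *Tasor*, a subunit of the HUSH silencing complex, had 31.3, 28.5 and 33.1 CPM in WT, 62.1, 51.7 and 53.5 in sg5, and 52.3, 51.5 and 57.5 in sg6, a log2 rise of 0.85 (adjusted p = 0.0037) and 0.80 (adjusted p = 0.0065, and 0.0540 without sg6 replicate 3). All KO libraries were above all WT libraries. *Dppa2*, which promotes the early embryonic programme that includes ERVL elements, had 1.14, 1.38 and 1.52 CPM in WT and 0 in all KO libraries, at least 10.6-fold lower in sg5 and 11.3-fold lower in sg6. *Mphosph8*, another HUSH subunit, was higher in sg5 (log2 fold change 1.19, adjusted p = 0.0038; sg6 0.64, adjusted p = 0.15), and *Cbx1*, an HP1 protein, was lower in sg5 (-0.70, adjusted p = 0.009; sg6 -0.51, adjusted p = 0.067). The call of *Cbx1* was lost without WT replicate 1 or 2 or any one sg5 library (0.0516 to 0.0932). *Setdb1* (-0.05 and -0.09) and *Trim28* (0.07 and -0.08) did not pass. Not tested for low counts were *Zfp42*, *Dppa4*, *Duxf3*, *Zscan4c*, *Zscan4d* and *Zfp352*. Whether these levels bear on the ERVL-MaLR loci was not tested.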

How the data were processed

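RNA of 9 rRNA-depleted libraries (3 each of WT, sg5 and sg6) was analysed, and polyA-selected libraries were not used here. According to the labels and the paper's methods, the authors aligned reads to mm10 with STAR v2.27.10a, keeping up to 100 alignments per read, counted genes and repeat loci with TElocal, and deposited the counts without normalization. Loci are named without coordinates, so none are given. Genes were named from RefSeq GRCm38.p6 (24045 of 24100 matched). Features were filtered with filterByExpr (minimum count 10, minimum total 15), scaled by TMM and tested with edgeR 4.0.16 (R 4.3.3) in a quasi-likelihood fit of all 9 libraries, with Benjamini-Hochberg adjustment over all features tested. Counts were also summed by repeat subfamily and tested beside the genes. Library totals of 20135336 to 33187136 counts limit the precision, and intervals and floors (3 counts per library) cover counting error only. The fits were tested on simulated data. Loci named are the 5 most abundant, the 8 highest and 8 lowest called in both clones without overlap, ranked by the smaller change, and up to 3 a direction that differ between clones. Members and lists were chosen with earlier results of these data known. Alternatives were a replicate block, DESeq2 1.42.0, other scalings, filters and thresholds, and the fits without a library. The share within LINE, SINE, LTR and DNA repeats was chosen after seeing the data.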

Additional observations from a re-analysis of the deposited data

Results flagged for a closer look

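At 6 ERVL-MaLR loci and *Thy1* the change against WT differed between the clones, by edgeR's quasi-likelihood test of sg5 versus sg6 with Benjamini-Hochberg adjustment. The log2 difference, sg5 minus sg6, was 6.88 at MTA_Mm_dup10726, 3.62 at MTD_dup32976, 1.77 at MLT1C_dup5033 and 1.46 at MTA_Mm-int_dup469. It was -6.85 at ORR1D1_dup9355 and -8.61 at ORR1F_dup11976. The fitted values of MTA_Mm_dup10726 and ORR1F_dup11976 depend on the prior count, because all libraries of a clone were at 0. The marker *Thy1* differed by -8.27 (adjusted p = 9.95e-09), at 0.0960 CPM in sg5 and 27.0 CPM in sg6. Whether the difference in *Thy1* bears on these loci was not tested.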

How the results depend on the processing

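Of the values of single loci, subfamilies and genes, 0 changed direction with a call under any alternative run. When a library was left out, the loci named kept their side of the threshold in 653 values and lost it in 113, and under the other alternatives in 759 and 26. Counts of loci over the whole family were within 1.5 times the main count unless given here, and the cause of a change was not tested unless the setting itself tests fewer or more features. With no filter on low counts, 70 loci were higher in sg5, 50 higher and 113 lower in sg6, 20 higher and 69 lower in both clones, and 8 higher and 10 lower in sg5 versus sg6. Over all features, 0.17% were then higher in sg5, 0.112% higher and 0.174% lower in sg6. For sg5 versus sg6, shares over all features are not given for any alternative, so those counts stand without a background. In both clones 0.0613% of all features were higher and 0.115% lower, beside 0.0226% and 0.0779% of ERVL-MaLR loci. With at least 10 counts in every library, which tests fewer loci, these were 13 higher and 20 lower in sg5, 8 and 7 in sg6, 5 and 2 in both (71.4% higher against 22.8%), and 2 and 1 in sg5 versus sg6, with 0 subfamilies lower in sg5, and loci lower in both were 1 internal (16 in the main fit, 11 of them MTA_Mm-int) and 1 LTR (28). Over all features, the filter of at least 10 counts gave 4.93% higher and 3.85% lower in sg5, 2.76% and 2.02% in sg6, and 1.88% and 1.31% in both. LTRs lower in both were 49 with no filter. With DESeq2, 20 loci were higher in both clones (37.0% of calls higher), 7 were higher and 4 lower in sg5 versus sg6, and 3 subfamilies were lower in sg5, 1 in sg6 and 1 in both. With adjustment over repeats alone, 26 loci were higher and 54 lower in sg5 (0.563% and 1.17%, beside 0.533% and 1.07% of repeat loci). In that setting 1 locus was higher in sg5 than sg6 and 0 subfamilies were lower in sg5. In fits of only the groups compared, 1 locus was higher in sg5 than sg6 and 0 subfamilies were lower in sg5. With TMM factors from repeats alone, 48.1% of the loci called in sg5 were higher (35.9% in the main fit). With these factors 2 subfamilies were higher and 0 lower in sg5, beside 6.07% and 4.14% of all features. With TMM factors from genes alone, 5 silencing genes passed in sg6, where 1.36% of all features were higher and 2.32% lower. With a log2 fold change beyond 1, 0 subfamilies were lower and 3 silencing genes passed in sg5, and the shares over all features at that limit are not given. Without the most abundant locus of each subfamily, 3 subfamilies were lower in sg5, 1 in sg6 and 1 in both (all features 8.51%, 6.12% and 4.47%).

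The replicate numbers do not pair the samples by the labels, and 8 of 9 same-numbered pairs of libraries correlated above 0.1 in their deviations from the group means (lowest 0.043, mean 0.180, against a mean of -0.089 for different numbers), a hint from the data only. The deviations of a group sum to 0, so the negative mean follows from the positive one and is not separate support. Not every library correlated best with its own number. With the replicate number as a block, 73 loci were higher in sg5 and 48 in sg6 (1.58% and 1.04%, beside 4.3% and 2.51% of all features). Of the subfamilies, 1 was higher and 4 lower in sg5, 1 lower in sg6 and 1 lower in both (all features 14.5%, 13%, 9.34% and 6.73%). Silencing genes that passed in either direction were 9 in sg5 and 5 in sg6, of 35 tested. More of all features passed too, 4.3% higher and 3.95% lower in sg5 and 2.51% and 2.92% in sg6. The share over genes alone is not given for this fit. The paired share differences stayed at -0.138 and -0.129 percentage points (exact sign-flip p = 0.5 in each, smallest possible 0.25).

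When each library was left out in turn, loci higher in sg5 ranged from 19 to 64 and lower from 32 to 98, higher in sg6 from 11 to 46 and lower from 28 to 84, and in both clones from 7 to 16 and 19 to 50. In sg5 versus sg6, they ranged from 1 to 7 higher and 2 to 5 lower. Subfamilies ranged from 0 to 1 higher and 0 to 4 lower in sg5. In the fits of loci, the lowest counts against WT came without WT replicate 3, and so did the lowest counts over all features. Adjustment over repeats alone does not apply to silencing genes. Depth limits these results to the 1.01% of loci with enough counts.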
